A study of Schmidtea mediterranea with 60 samples.

Results

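Among the transcripts of regenerating planarian tails there is a group whose level, as the authors scaled it, moved little in any of 36 libraries. This held whatever the RNAi and whatever the time after amputation. The results below describe that group and ask how it held in 24 whole-body libraries that had no part in choosing it. The group holds 150 features, of 3252 that were eligible and of 36035 in the tail table. A feature is 1 transcript entry of the deposited tables, named by an ID that begins with SMED30. Eligible features had a mean of at least 500 over the 36 tail libraries and were not among the 50 highest in control tails at 0dpa. They were ordered by the standard deviation (SD) of log2(value + 10) over the 36 tail libraries, and the 150 lowest were taken. The tail values chose these members, so every tail value below is a description with no test, and tests were made in whole bodies only. The other 3102 eligible features are the comparison set throughout.

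The animals were Schmidtea mediterranea, a freshwater flatworm, and every group had 3 libraries. RNAi lowers a chosen transcript by giving double-stranded RNA of its sequence, and egfp, the sequence of a jellyfish protein that the worm lacks, was the control. Tails carried a pair of RNAi targets: opa1 with drp1 (called combined here), opa1 with egfp (opa1), or egfp with egfp (control), each sampled at 0dpa, 6hpa, 1dpa and 2dpa, that is days or hours after amputation. Whole bodies had opa1, drp1, sod2 or egfp RNAi at 1dpa and at a time labelled homo, which the labels do not explain. All animals of both experiments had therefore received double-stranded RNA, the controls too. Whether replicates were separate animals, pools or repeat preparations is not in the labels, and the p-values below therefore measure the spread between libraries, which may be technical. The files do not pair the IDs with gene names, so the loss of opa1, drp1 or sod2 transcript could not be checked and no cell type markers could be read.

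Planarians regrow missing parts from neoblasts, dividing adult stem cells that make every other cell type, and amputation is followed by an early wound response in many tissues and then by growth of new tissue. OPA1 is a mitochondrial protein that fuses inner membranes and shapes cristae, DRP1 divides mitochondria, and SOD2 removes superoxide in the mitochondrial matrix. Transcripts with steady levels matter in such work because expression is measured relative to something: a reference transcript in quantitative PCR, or the bulk of transcripts when sequencing libraries are scaled to each other. Steady transcripts are often those of basic cell functions such as translation or protein turnover, but whether these 150 are of that kind cannot be said without gene names.

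Depth touches the results in a few ways. Whole-body libraries held 10611093 to 14328908 estimated counts. Replicates within whole-body groups differed by more than counting error, with a chi-square of 3.38 to 8.31 per degree of freedom. The value is pooled over the 3 libraries of a group, so it cannot say whether any of them repeats another. The tail table holds values that the authors had already scaled between libraries, and library totals on that scale ran from 8345034 to 14472026. The opa1 and drp1 RNAi homo libraries stood apart from the others: against egfp homo, the median log2 fold change over all 22889 features tested was -0.213 for opa1 and -0.166 for drp1 when libraries were scaled by their totals alone, and -0.020 and -0.013 with the TMM scaling used below. Counts of calls that do not compare these libraries directly are also given without them, an alternative added after the data were seen.

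In tails the members spanned a wide range of levels. Their mean value was 505 to 9093 with a median of 916, close to the median of 938 in the other eligible features. Their SD was 0.0740 to 0.147 on the log2 scale, with a median of 0.129, against a median of 0.339 in the others. The highest of the 36 libraries was 1.25 to 1.67 times the lowest, with a median of 1.46. All 36 libraries lay within a 1.5-fold range for 101 of 150 members (67.3%) and for 17 of 3102 others (0.548%), and within a 2-fold range for 150 of 150 members and 886 of the others (28.6%). These contrasts follow from the choice of members and show only how far the rule separated them.

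The steadiest feature was SMED30005666, with an SD of 0.0740. At 0dpa it was at 1601, 1725 and 1718 in combined RNAi tails, 1609, 1706 and 1576 in opa1 RNAi tails and 1596, 1506 and 1584 in control tails, in the authors' scaled values. At 6hpa the values were 1611, 1744 and 1725 with combined RNAi, 1606, 1665 and 1524 with opa1 RNAi and 1683, 1676 and 1608 in control tails. The 6hpa libraries, taken hours after the wound, thus lay in the range of those at 0dpa or near it. At 1dpa it was at 1628, 1659.9 and 1749 with combined RNAi, 1567, 1403 and 1675 with opa1 RNAi and 1555, 1651 and 1592 in control tails. At 2dpa it was at 1471, 1633 and 1597 with combined RNAi, 1577, 1564 and 1431 with opa1 RNAi and 1623, 1581 and 1546 in control tails. The lowest library, at 1403, and the highest, at 1749, were both taken at 1dpa, and among groups of the same time the combined RNAi and control tails at 0dpa alone did not overlap.

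Next in order came SMED30008048 with an SD of 0.0860, SMED30030673 with 0.0870, SMED30010650 with 0.0902 and SMED30013666 with 0.0903. SMED30010650 ran from 1426 in a control tail at 2dpa to 1828 in a combined RNAi tail at 1dpa. Its 3 combined RNAi libraries at 6hpa, 1507, 1489 and 1519, lay below its 3 opa1 RNAi libraries at that time, 1605, 1668 and 1659.8, and overlapped the control ones, 1617, 1527 and 1498. At 6hpa the combined and opa1 RNAi tails were thus separate, while the control tails overlapped both.

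**Figure D1:**
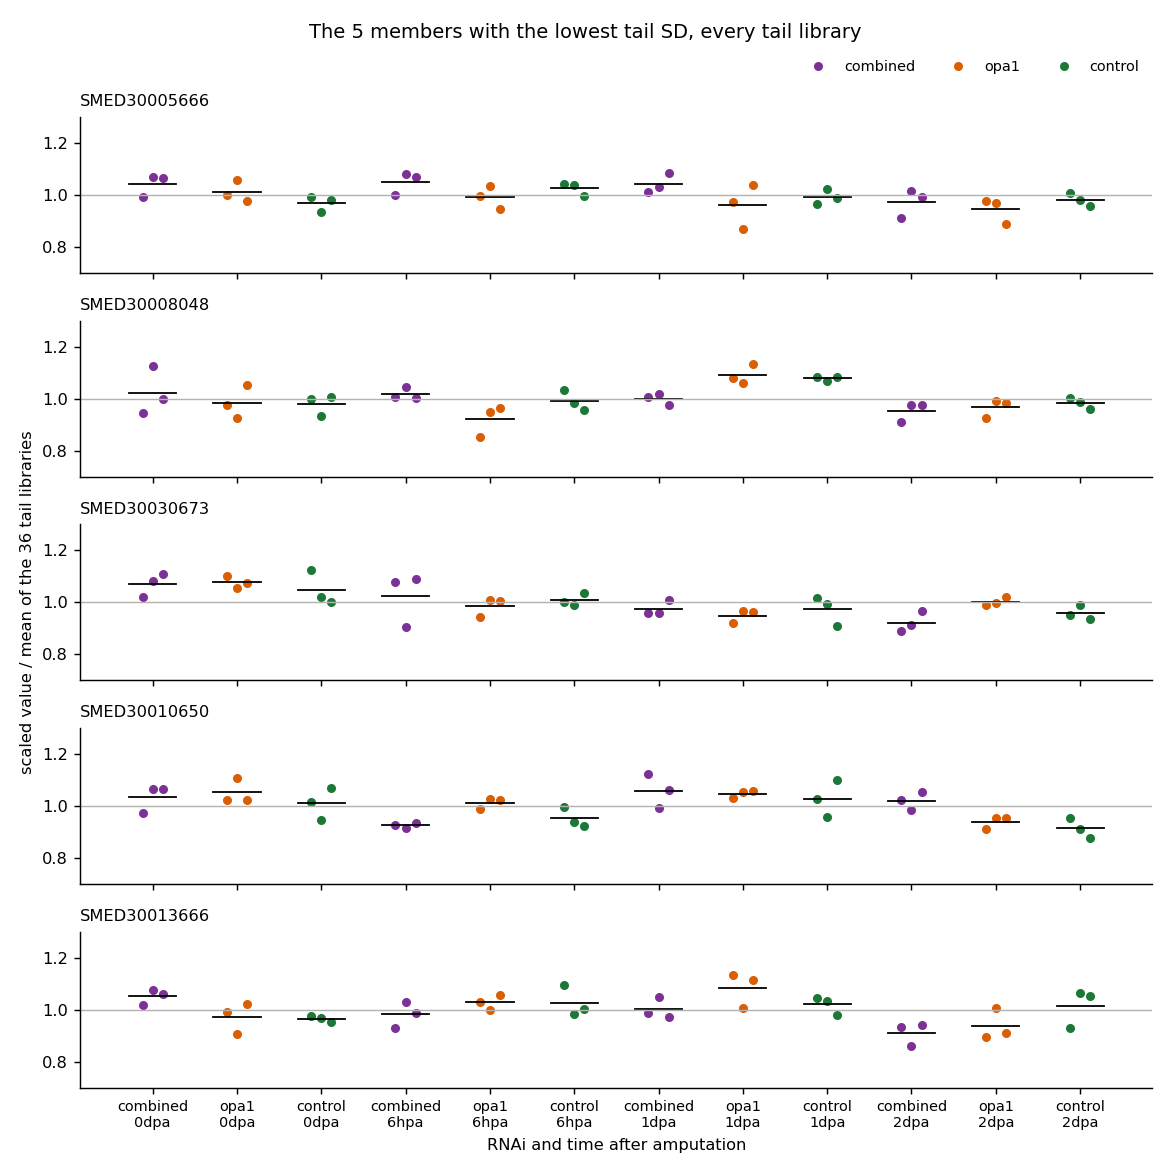
Scaled tail value of the 5 members with the lowest tail SD, divided by the feature's mean over the 36 tail libraries (vertical axis, no unit), by RNAi and time (horizontal axis), with 1 point a library and a line for each mean of 3. The widest range between libraries among them was 1.33-fold, in SMED30008048.

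At the limit of the rule, the last 3 members were SMED30031169 and SMED30033402, both with an SD of 0.1455, and SMED30030620 with 0.1465. The first 3 left out were SMED30016141 with 0.1465, and SMED30026402 and SMED30030323 with 0.1467. Nothing separates these features but their place in the order.

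The spread of members between groups was about as large as that between replicates. Their median SD within groups was 0.0984 and that between the 12 group means 0.0998, while the other eligible features had 0.147 within and 0.323 between groups. Group means of a member spanned a median of 0.33 on the log2 scale, against 0.98 in the others. The median deviation of the members in a group ran from -0.029 in opa1 RNAi tails at 2dpa to 0.033 in combined RNAi tails at 1dpa. Of the others it ran from -0.073 in combined RNAi tails at 2dpa to 0.098 in combined RNAi tails at 6hpa, the group where 35.6% of the others and 20.0% of the members (30 of 150) were highest. Summed over members, the scaled values of a library came to 199291 to 218912, with a coefficient of variation of 2.46% over the 36 libraries. As a share of the library total on that scale they were less even, at 1.51% to 2.49%. The coefficient of variation of the share was 13.7%, beside one of 16.4% for the totals. The mean share was lowest at 6hpa with every RNAi: 1.62% in combined, 1.91% in opa1 and 1.61% in control tails. In the groups of the other times it was 2.10% to 2.46%.

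The times at which members had their extremes were spread unevenly. The group in which a member was highest was at 0dpa for 32 members (21.3%, against 17.9% of the others), at 6hpa for 42 (28% against 45.4%), at 1dpa for 59 (39.3% against 25.3%) and at 2dpa for 17 (11.3% against 11.4%). The group in which it was lowest was at 0dpa for 31 (20.7% against 13.3%), at 6hpa for 51 (34.0% against 37.3%), at 1dpa for 21 (14.0% against 26.0%) and at 2dpa for 47 (31.3% against 23.3%). Opa1 RNAi tails at 1dpa were the highest group for 32 members (21.3%, against 16.1% of the others), the most of any group. Combined RNAi tails at 6hpa followed with 30 members. SMED30012974, which moved widely in whole bodies as described below, was at 3823, 3639 and 3839 in combined RNAi tails at 2dpa, 4136, 3867 and 3991 in opa1 RNAi tails and 4162, 4121 and 3806 in control tails at that time. At 6hpa it was at 4735, 5078 and 4966 in combined RNAi tails, 4963, 4641 and 4718 in opa1 RNAi tails and 5401, 4607 and 4420.1 in control tails. With any of the 3 RNAi pairs, the 2dpa libraries were thus all below the 6hpa ones.

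Which features count as steady depended on how the libraries were scaled. When the tail values were rescaled with TMM, 101 of the 150 were chosen again, and when totals were made equal after leaving out the most abundant feature, 42 were. On the deposited tail TPM, a table that holds part of the features and 109 of the members, 1 member was chosen again. The members' median SD there was 0.303 against 0.418 in 2398 other eligible features, and it was 0.166 against 0.359 with equal totals and 0.137 against 0.342 with TMM. Members had the lower median SD on each of these scales, and the gap was narrowest on TPM. The choice also rested on the 6hpa libraries, since 66 members were chosen again without them and 95 from control tails alone. Leaving out any single library kept 139 to 149.

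The question put to the whole bodies was whether steadiness in tails carries over to other samples, RNAi targets and times. It did so in part. Over the 24 whole-body libraries the members' SD of log2(scaled count + 10) had a median of 0.153, against 0.218 in the other eligible features and 0.212 in all 4682 features with a whole-body mean of at least 500. It ran from 0.0581 to 0.422 among members. Of 150 members, 121 (80.7%) had an SD in the lower 50% of eligible features and 73 (48.7%) in the lowest 25%, where 1505 and 740 (23.9%) of the 3102 others were. In the lowest 10% were 38 members (25.3%) and 287 others (9.25%). In the highest 25% were 6 members (4.0%) and 807 others (26.0%). All 24 libraries lay within a 1.5-fold range for 79 members (52.7%) and 816 others (26.3%). Within a 2-fold range they did so for 140 members (93.3%) and 2146 others (69.2%). The members were thus steadier than comparable features in whole bodies, though 22 of 150 (14.7%) were among the 150 lowest there, where 4.61% of all eligible features stand.

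The gap between the sets was also present without the opa1 and drp1 RNAi homo libraries. Without these 6 libraries the median SD was 0.121 in members and 0.168 in the others. In egfp RNAi libraries alone it was 0.103 against 0.145. On whole-body TPM it was 0.173 against 0.215, with 13 members among the 150 lowest.

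Between-group differences made most of the whole-body spread. The members' median SD was 0.0748 within groups and 0.143 between the 8 group means, and the others had 0.0929 and 0.212. Between-group SD was above within-group SD for 140 of 150 members and 2961 of 3102 others. Group means of a member spanned a median of 0.41 on the log2 scale, against 0.60 in the others. Counting error alone would give an SD of 0.0383 at the count of the median member. For 49 of 150 members (32.7%) and 2422 of 3102 others (78.1%) the SD in whole bodies was below that in tails. Members had been chosen for a low tail SD, and the values are on 2 differently scaled tables.

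Tail and whole-body spread were related weakly across features. In 10 groups of eligible features ordered by tail SD, 325 or 326 features each, the median whole-body SD was 0.162 in the lowest group, 0.184 in the next and 0.198 in the one after. It was 0.213 to 0.235 in groups 4 to 9 and 0.299 in the highest. Across the 3252 eligible features Spearman's rho between both SDs was 0.286, and among the 150 members alone it was 0.117. Features share libraries and scaling, so these are descriptions and carry no p. The 50 steadiest members had a median whole-body SD of 0.147, the next 50 had 0.149 and the last 50 had 0.172. For level, the members' tail and whole-body means had a rho of 0.926. The rule had held their tail SD to 0.0740 to 0.147 but left their tail mean wide, at 505 to 9093. The rhos of spread and level among members are therefore not comparable.

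**Figure D2:**
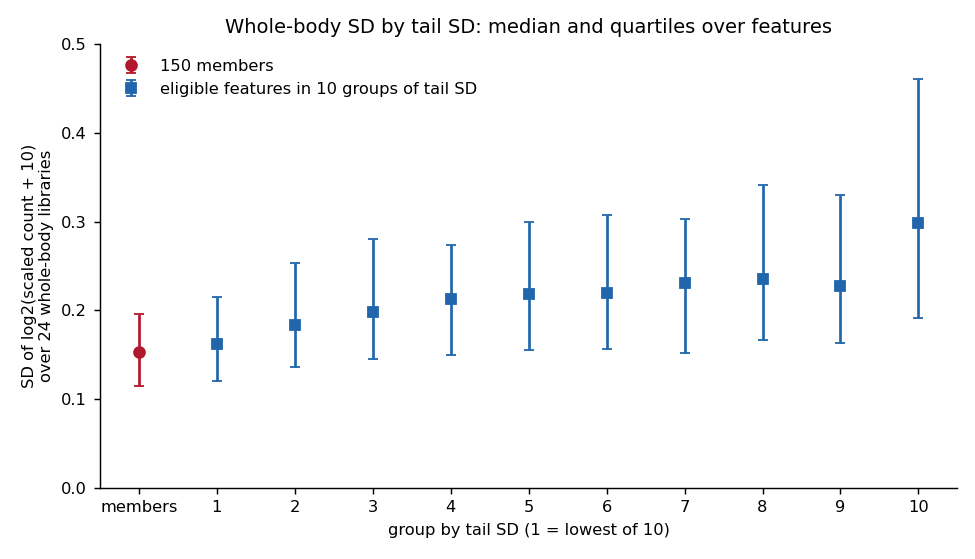
SD of log2(scaled count + 10) over 24 whole-body libraries (vertical axis) for the 150 members and for eligible features in 10 groups of tail SD (horizontal axis, 1 the lowest, members included in their groups), as median with lower and upper quartile over features. The median was 0.153 in members and lay between 0.162 and 0.299 in the groups.

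The difference from other eligible features was present at each level of expression. With a tail mean of 500 to 1000, the median whole-body SD was 0.135 in 85 members and 0.209 in 1657 others. From 1000 to 2000 it was 0.168 in 40 members and 0.221 in 801 others, and above 2000 it was 0.172 in 25 members and 0.256 in 644 others. Per length, the members had a median whole-body TPM of 53.3 and the others 49.3. Their relative transcript length, the ratio of estimated count to TPM divided by its median over eligible features, had a median of 0.893 in members and 1.01 in the others. Members together made up 2.22% to 2.50% of a whole-body library.

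SMED30010650 was among the 5 lowest SDs in both experiments. At 1dpa it had 129, 124 and 133 CPM (counts scaled to a common, TMM-adjusted library size) with opa1 RNAi, 137, 133 and 143 with drp1, 134, 131 and 127 with sod2 and 145, 135 and 129.8 with egfp. At homo it had 150.2, 138 and 143 CPM with opa1 RNAi, 136, 136 and 131 with drp1, 136, 136 and 136 with sod2 and 133, 134 and 132 with egfp. The highest library was 1.22 times the lowest, and opa1 RNAi bodies held both the highest library, at homo, and the lowest, at 1dpa. Of 10 RNAi and time comparisons it passed 1, opa1 RNAi at 1dpa against homo, where the log2 fold change was -0.16 (SE 0.06, edgeR adjusted p = 0.0251).

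The lowest whole-body SDs of the members were those of SMED30032885 (0.0581), SMED30010650 (0.0627), SMED30013177 (0.0696), SMED30026133 (0.0722) and SMED30001234 (0.0724). SMED30032885 had 331, 338 and 338 CPM with opa1 RNAi at 1dpa, 368, 374 and 359.7 with drp1, 366, 358 and 354 with sod2 and 375, 382 and 369 with egfp. At homo it had 355, 355 and 356 CPM with opa1 RNAi, 368, 352 and 352 with drp1, 334, 334 and 344 with sod2 and 366, 367 and 348 with egfp. Its 24 libraries lay within a 1.16-fold range. SMED30013177, one of the more abundant members with a mean of 639 CPM, stayed within a 1.28-fold range. It passed 1 comparison, opa1 RNAi at homo, where the log2 fold change was 0.17 (SE 0.06, edgeR adjusted p = 0.029).

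SMED30005666, the steadiest in tails, was not among the steadiest in whole bodies, with an SD of 0.160 that stood at percentile 28.6 of the eligible features. At 1dpa it had 141, 135 and 145 CPM with opa1 RNAi and 158, 148 and 149 with egfp. At homo it had 209, 195 and 186 CPM with opa1 RNAi and 173, 164 and 148 with egfp. With TMM scaling, opa1 RNAi libraries were thus above all egfp ones at homo and below all of them at 1dpa. The difference at 1dpa did not pass, with a log2 fold change of -0.12 (SE 0.07, edgeR adjusted p = 0.363). The log2 fold change was 0.28 (SE 0.07, edgeR adjusted p = 0.00362) at homo, and the log2 fold change was -0.49 (SE 0.07, edgeR adjusted p = 1.39e-06) for opa1 RNAi bodies at 1dpa against homo. With library totals alone the members' median moved from 0.18 to -0.014 in the former comparison and from -0.20 to 0.16 in the latter. Values of this feature on that scale are not given.

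The largest whole-body SDs were those of SMED30035360 (0.422), SMED30012974 (0.369), SMED30023729 (0.362), SMED30031975 (0.319) and SMED30024644 (0.313). SMED30035360 is also the most abundant member in tails, with a mean of 9093. At 1dpa it had 403, 449.9 and 518 CPM with opa1 RNAi, 989, 835 and 681 with drp1, 882, 838 and 855 with sod2 and 858, 810.3 and 843 with egfp. At homo it had 923, 846 and 835 CPM with opa1 RNAi, 949, 929 and 871 with drp1, 459, 481 and 481 with sod2 and 681, 501 and 537 with egfp. Opa1 RNAi bodies were therefore below all others at 1dpa, while at homo opa1 and drp1 RNAi bodies were above all sod2 and egfp ones. In the tails the same feature was at 8619, 7122 and 7689.6 with opa1 RNAi at 1dpa and 9579.7, 8933 and 9337 in control tails, so that these 2 groups did not overlap there either.

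SMED30012974 and SMED30023729 moved the same way with opa1 RNAi. SMED30012974 had 296, 315 and 351 CPM with opa1 RNAi and 423, 424 and 439 with egfp at 1dpa. At homo it had 737, 696 and 649.6 CPM with opa1 RNAi and 498, 467 and 406 with egfp. SMED30023729 had 148, 169.7 and 189 CPM with opa1 RNAi against 259.9, 225 and 264 with egfp at 1dpa, and 391, 359.6 and 373 against 312, 231 and 267 at homo. In both, opa1 RNAi libraries were all below the egfp ones at 1dpa and all above them at homo.

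**Figure D3:**
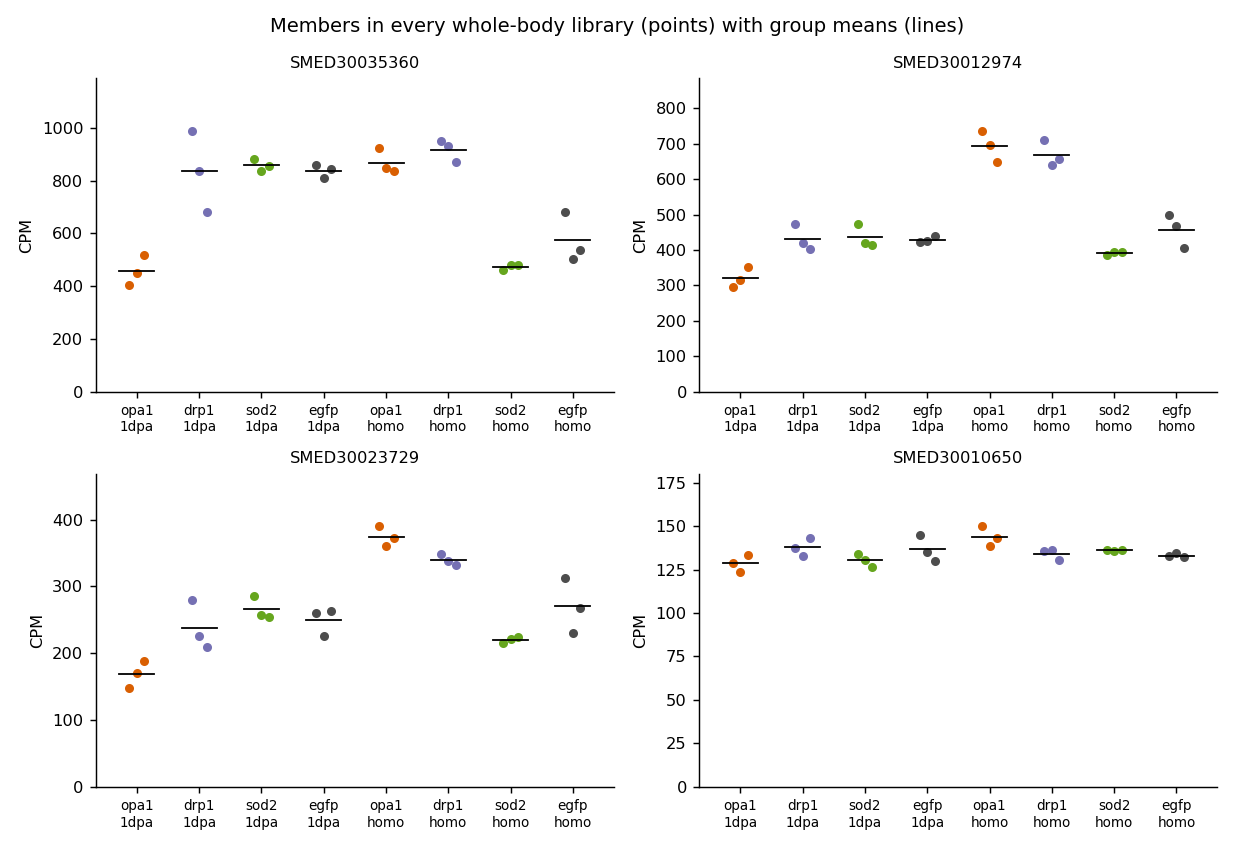
CPM, that is scaled counts (vertical axis, from 0) in every whole-body library, by RNAi and time (horizontal axis), for the 3 members with the largest whole-body SD and for SMED30010650, with 1 point a library and a line for each mean of 3. In SMED30035360, SMED30012974 and SMED30023729 the opa1 RNAi points are below the egfp ones at 1dpa and above them at homo, and SMED30010650 stays within a 1.22-fold range.

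Across the 8 whole-body groups, 128 of 150 members differed by edgeR's quasi-likelihood test at an adjusted p under 0.05, which is 85.3%. The share was 94.7% in the other eligible features (2938 of 3102) and 61.8% of the 22889 features tested. Most members thus differed between some of the groups, though fewer of them did than of features of like abundance. Without the opa1 and drp1 RNAi homo libraries, and so across 6 groups, 89 members passed (59.3%), against 82.8% of the other eligible features and 41.4% of all 22647 features tested. The p-values alone do not say how large the differences were. The 95% confidence interval of the fold change lay inside 1.5-fold in all 10 comparisons for 91 members (60.7%) and 1104 others (35.6%).

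**Figure D4:**
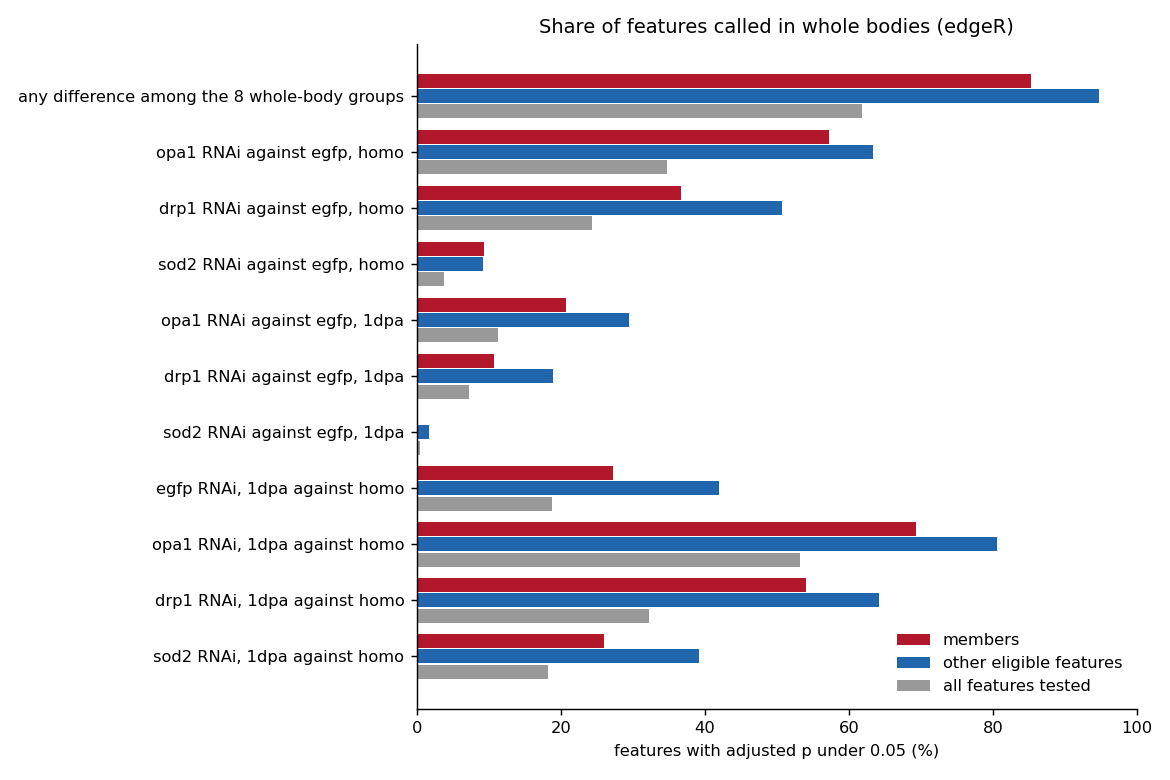
Percent of features with an edgeR adjusted p under 0.05 (horizontal axis, from 0) in each whole-body comparison (vertical axis), for the 150 members, the other eligible features and all features tested. For the test across 8 groups the bars stand at 85.3%, 94.7% and 61.8%, and for sod2 RNAi against egfp at 1dpa the members' bar is at 0.

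Opa1 RNAi at homo gave the most calls among the RNAi comparisons. There 86 members passed against egfp (57.3%), against 63.4% of the other eligible features and 34.8% of all features tested. With TMM scaling 75 were higher and 11 lower, where 46.6% of the others were higher and 16.9% lower, but with library totals alone 49 passed, 19 of them higher and 30 lower. The members' median log2 fold change was 0.18 with TMM and -0.014 with totals, which is 0.20 above the median of all features on either scaling. The other eligible features had nearly the same median with TMM, 0.17, so this offset was not particular to the members. The interval lay inside 1.5-fold for 136 members (90.7%) and 2205 others (71.1%), and 3 members and 11.5% of the others both passed and moved by more than 1.5-fold. The fit to the opa1 and egfp homo libraries alone gave 49 calls.

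SMED30012974 and SMED30035360 rose most with opa1 RNAi at homo. With the values given above, the log2 fold change was 0.60 (SE 0.08, edgeR adjusted p = 1.28e-06) for SMED30012974, and the log2 fold change was 0.60 (SE 0.10, edgeR adjusted p = 4.53e-05) for SMED30035360. Of the members that fell, SMED30029683 had 66.6, 78.2 and 74.7 CPM with opa1 RNAi and 95.8, 114 and 120.4 with egfp. Its groups did not overlap, and the log2 fold change was -0.59 (SE 0.09, edgeR adjusted p = 8.35e-06). SMED30019308 had 75.7, 75.8 and 75.4 CPM with opa1 RNAi and 104, 107 and 112 with egfp. Here too every opa1 RNAi library was below every egfp one, and the log2 fold change was -0.51 (SE 0.07, edgeR adjusted p = 3.16e-06). These 4 members kept their direction and their call with library totals alone.

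Drp1 RNAi at homo was tested against the same egfp libraries, so its values are not independent of those for opa1. Here 55 members passed (36.7%), against 50.7% of the other eligible features and 24.3% of all features tested, with 45 higher and 10 lower. Of the others 35.6% were higher and 15.1% lower. With library totals alone 48 passed, 14 higher and 34 lower. The median log2 fold change was 0.11, and -0.047 with totals, 0.12 above that of all features on either scaling. With TMM the other eligible features had a median of 0.10. The interval lay inside 1.5-fold for 142 members (94.7%) and 2417 others (77.9%). The count was 33 without egfp homo replicate 3 and 36 without drp1 homo replicate 1.

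SMED30035360 again rose most, with 949, 929 and 871 CPM in drp1 RNAi bodies and 681, 501 and 537 in egfp ones, and the log2 fold change was 0.68 (SE 0.10, edgeR adjusted p = 1.24e-05). It was the 1 member that both passed and moved by more than 1.5-fold, as 8.93% of the others did. SMED30012974 had 709, 639 and 656 CPM with drp1 RNAi and 498, 467 and 406 with egfp, without overlap, and the log2 fold change was 0.55 (SE 0.08, edgeR adjusted p = 6.49e-06). SMED30019308, with 70.5, 74.9 and 71.1 CPM with drp1 RNAi, fell, and the log2 fold change was -0.58 (SE 0.07, edgeR adjusted p = 5.65e-07). SMED30006819 had 98.3, 106 and 96.9 CPM with drp1 RNAi and 134, 135 and 154 with egfp. It fell as well, without overlap, and the log2 fold change was -0.49 (SE 0.07, edgeR adjusted p = 8.55e-06).

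Sod2 RNAi at homo gave fewer calls. There 14 passed (9.33%), against 9.22% of the other eligible features and 3.77% of all features tested, with 11 higher and 3 lower, where 4.87% of the others were higher and 4.35% lower. The members were thus called about as often as features of like abundance in this comparison. None of the 14 moved by more than 1.5-fold, as 1.58% of the others did, and the interval lay inside that limit for 147 members (98.0%) and 2915 others (94.0%). There were 11, 10 higher and 1 lower, without the opa1 and drp1 RNAi homo libraries. The count was 8 without sod2 homo replicate 1, 8 without replicate 2 and 9 without replicate 3.

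SMED30025732 had 108, 104 and 112 CPM with sod2 RNAi and 74.1, 70.7 and 82.1 with egfp at homo. It was above all egfp libraries in each sod2 one, and the log2 fold change was 0.52 (SE 0.08, edgeR adjusted p = 0.000287). SMED30035297, the member with the lowest tail mean, had 56.7, 64.8 and 62.0 CPM with sod2 RNAi and 42.6, 51.5 and 41.8 with egfp, and the log2 fold change was 0.43 (SE 0.09, edgeR adjusted p = 0.00753). This call was lost without sod2 homo replicate 2, where the log2 fold change was 0.39. SMED30031975 had 78.1, 78.6 and 77.3 CPM with sod2 RNAi and 118, 91.2 and 106 with egfp, without overlap, and the log2 fold change was -0.43 (SE 0.08, edgeR adjusted p = 0.00221). SMED30012216 had 196, 195 and 196 CPM with sod2 RNAi and 236, 218 and 268 with egfp. It was lower in each sod2 library, and the log2 fold change was -0.30 (SE 0.08, edgeR adjusted p = 0.0351), a call lost with library totals alone, without the opa1 and drp1 RNAi homo libraries, and without any 1 of egfp homo replicates 1 and 3 and sod2 homo replicates 1, 2 and 3, with log2 fold changes of -0.22 to -0.32.

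At 1dpa the RNAi comparisons gave fewer calls. With opa1 RNAi 31 members passed against egfp (20.7%), against 29.5% of the other eligible features and 11.2% of all features tested. Of these, 10 were higher and 21 lower with TMM scaling, where 9.45% of the others were higher and 20.1% lower, but with library totals alone 43 passed, 32 higher and 11 lower. The median log2 fold change was -0.033, 0.053 below that of all features, and -0.031 in the other eligible features. The interval lay inside 1.5-fold for 144 members (96.0%) and 2731 others (88.0%). Leaving out the opa1 and drp1 RNAi homo libraries gave 32, with 8 higher and 24 lower. The count was 16 without egfp 1dpa replicate 3 and 16 without opa1 1dpa replicate 1.

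SMED30035360 fell most with opa1 RNAi at 1dpa, and was the 1 member past 1.5-fold that passed, against 5.13% of the others. With the values given above, the log2 fold change was -0.87 (SE 0.10, edgeR adjusted p = 4.07e-07). For SMED30023729, which also fell, the log2 fold change was -0.57 (SE 0.10, edgeR adjusted p = 0.000149). SMED30026350 had 69.2, 67.9 and 71.6 CPM with opa1 RNAi and 45.8, 56.1 and 53.4 with egfp. Every opa1 RNAi library was higher, and the log2 fold change was 0.43 (SE 0.09, edgeR adjusted p = 0.00132). SMED30006679 had 90.3, 79.7 and 78.0 CPM with opa1 RNAi and 64.5, 64.7 and 61.4 with egfp, and the log2 fold change was 0.38 (SE 0.08, edgeR adjusted p = 0.000977).

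With drp1 RNAi at 1dpa, against the same egfp libraries, 16 members passed (10.7%), against 18.9% of the other eligible features and 7.19% of all features tested. Of these 10 were higher and 6 lower, where 11.4% of the others were higher and 7.51% lower. None passed 1.5-fold as well, against 3.03% of the others, and the interval lay inside that limit for 149 members (99.3%) and 2814 others (90.7%). Without the opa1 and drp1 RNAi homo libraries 9 passed, 4 higher and 5 lower, and the fit of the compared libraries alone gave 4, 2 higher and 2 lower. The count moved with single libraries too: it was 5 without egfp 1dpa replicate 2, 7 without replicate 1 and 9 without replicate 3. It was 7 without drp1 1dpa replicate 1, 6 without replicate 3, and 10 without drp1 homo replicate 1, drp1 homo replicate 3 or sod2 homo replicate 1.

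SMED30026350 had 70.0, 68.4 and 70.7 CPM with drp1 RNAi at 1dpa against the egfp values given above, and the log2 fold change was 0.43 (SE 0.09, edgeR adjusted p = 0.00195). SMED30001300 had 75.8, 69.2 and 80.8 CPM with drp1 RNAi and 61.8, 55.6 and 59.5 with egfp, and the log2 fold change was 0.35 (SE 0.07, edgeR adjusted p = 0.0019). Both were higher in every drp1 library than in any egfp one. SMED30022256 had 125, 118 and 113 CPM with drp1 RNAi and 152, 152 and 142 with egfp. It was lower in each, and the log2 fold change was -0.33 (SE 0.07, edgeR adjusted p = 0.00246). SMED30028724 had 84.4, 78.1 and 80.7 CPM with drp1 RNAi and 93.4, 111 and 101 with egfp, and the log2 fold change was -0.33 (SE 0.08, edgeR adjusted p = 0.0069). This last call was lost without egfp 1dpa replicate 2, where the log2 fold change was -0.27.

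With sod2 RNAi at 1dpa, 0 of 150 members passed by edgeR, and 0 by DESeq2, against 1.64% of the other eligible features and 0.393% of all features tested by edgeR. Of the others 0.903% were higher and 0.741% lower, and 0.58% passed 1.5-fold as well. At an unadjusted p under 0.05 there were 3 members (2.0%). The count was also 0 without the opa1 and drp1 RNAi homo libraries. A p above the threshold does not show that values did not differ, but here the intervals are narrow. They lay inside 1.5-fold for 150 of 150 members and for 2999 others (96.7%), and the largest fitted change of a member was 1.15-fold. This was the only one of the 10 comparisons in which every member's interval lay inside 1.5-fold.

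The time comparisons set 1dpa against homo within each RNAi. In egfp RNAi bodies at 1dpa against homo, 41 members passed (27.3%), against 42.0% of the other eligible features and 18.7% of all features tested. Of these 20 were higher and 21 lower, where 17.2% of the others were higher and 24.8% lower, and with library totals alone 42 passed, 30 higher and 12 lower. Without the opa1 and drp1 RNAi homo libraries 41 passed, 19 higher and 22 lower. None moved by more than 1.5-fold, as 5.25% of the others did, and the interval lay inside that limit for 145 members (96.7%) and 2628 others (84.7%). SMED30031975 had 174, 149 and 149 CPM at 1dpa and 118, 91.2 and 106 at homo, and the log2 fold change was 0.58 (SE 0.08, edgeR adjusted p = 3.3e-06). SMED30014124 had 78.3, 70.5 and 81.9 CPM at 1dpa and 55.1, 46.0 and 55.9 at homo, and the log2 fold change was 0.55 (SE 0.09, edgeR adjusted p = 3.09e-05). Both were higher in every 1dpa library than in any homo one. SMED30009405 had 155, 181 and 162 CPM at 1dpa and 222, 239 and 219.7 at homo, and the log2 fold change was -0.46 (SE 0.07, edgeR adjusted p = 1.03e-05). SMED30026872 had 102, 104 and 99.4 CPM at 1dpa and 128, 135 and 131 at homo, and the log2 fold change was -0.37 (SE 0.06, edgeR adjusted p = 3.68e-05). In both of these the times did not overlap.

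In opa1 RNAi bodies 104 members passed between 1dpa and homo (69.3%), against 80.6% of the other eligible features and 53.2% of all features tested. With TMM scaling 24 were higher and 80 lower at 1dpa, where 743 of the 3102 others (24%) were higher and 56.7% lower, but with library totals alone 106 passed, 75 higher and 31 lower. The median log2 fold change was -0.20 with TMM and 0.16 with totals, 0.29 and 0.28 below that of all features. The other eligible features fell more, with a median of -0.27 with TMM. The interval lay inside 1.5-fold for 106 members (70.7%) and 1392 others (44.9%), and 22 members (14.7%) and 38.7% of the others passed and moved by more than 1.5-fold. This was the comparison in which members moved most.

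SMED30024644 had 162, 141 and 141 CPM in opa1 RNAi bodies at 1dpa and 81.5, 72.4 and 85.3 at homo. It was higher in each 1dpa library, and the log2 fold change was 0.89 (SE 0.09, edgeR adjusted p = 3.05e-09). SMED30029683 had 109.6, 121 and 105 CPM at 1dpa and 66.6, 78.2 and 74.7 at homo, and the log2 fold change was 0.61 (SE 0.09, edgeR adjusted p = 5.7e-07). SMED30023729 fell to the values given above, and the log2 fold change was -1.15 (SE 0.10, edgeR adjusted p = 5.55e-11). SMED30012974 fell likewise, and the log2 fold change was -1.11 (SE 0.08, edgeR adjusted p = 1.91e-12). These 4 members kept their direction and call with library totals alone.

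In drp1 RNAi bodies 81 members passed between 1dpa and homo (54.0%), against 64.2% of the other eligible features and 32.3% of all features tested. With TMM 28 were higher and 53 lower at 1dpa, where 21.4% of the others were higher and 42.8% lower, and with library totals alone 78 passed, 66 higher and 12 lower. The median log2 fold change was -0.089 with TMM and 0.14 with totals, 0.11 below that of all features on either. With TMM the other eligible features had a median of -0.13. The interval lay inside 1.5-fold for 137 members (91.3%) and 2045 others (65.9%), and 4 members and 15.6% of the others passed and moved by more than that. SMED30014124 had 91.2, 79.9 and 75.3 CPM at 1dpa and 51.5, 56.8 and 50.8 at homo, and the log2 fold change was 0.63 (SE 0.09, edgeR adjusted p = 1.55e-06). SMED30031169 had 75.4, 72.4 and 74.7 CPM at 1dpa and 44.0, 49.5 and 50.2 at homo, and the log2 fold change was 0.63 (SE 0.08, edgeR adjusted p = 1.68e-07). Both were higher at 1dpa in every library. SMED30012974 had 473, 419 and 402 CPM at 1dpa and 709, 639 and 656 at homo, and the log2 fold change was -0.63 (SE 0.08, edgeR adjusted p = 2.36e-07). SMED30028724 had 84.4, 78.1 and 80.7 CPM at 1dpa and 119.8, 112 and 121 at homo, and the log2 fold change was -0.54 (SE 0.08, edgeR adjusted p = 2.8e-06). In both of these every 1dpa library was lower.

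In sod2 RNAi bodies 39 members passed between 1dpa and homo (26.0%), against 39.2% of the other eligible features and 18.2% of all features tested, with 18 higher and 21 lower. The count was 36, with 15 higher and 21 lower, without the opa1 and drp1 RNAi homo libraries. Of the others 17.6% were higher and 21.6% lower. Here 4 members and 5.96% of the others passed and moved by more than 1.5-fold, and the interval lay inside that limit for 143 members (95.3%) and 2610 others (84.1%). SMED30031975 had 159, 149.5 and 152 CPM at 1dpa and 78.1, 78.6 and 77.3 at homo, and the log2 fold change was 0.98 (SE 0.08, edgeR adjusted p = 2.4e-10). SMED30035360 had 882, 838 and 855 CPM at 1dpa and 459, 481 and 481 at homo, and the log2 fold change was 0.86 (SE 0.10, edgeR adjusted p = 3.31e-07). Both were higher at 1dpa without overlap. SMED30006653 had 122, 127 and 120.0 CPM at 1dpa and 182, 199 and 192 at homo, and the log2 fold change was -0.63 (SE 0.07, edgeR adjusted p = 1.54e-07). SMED30029416 had 66.4, 58.7 and 61.8 CPM at 1dpa and 92.9, 87.2 and 89.2 at homo, and the log2 fold change was -0.53 (SE 0.09, edgeR adjusted p = 0.000118). Both were lower at 1dpa without overlap.

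**Figure D5:**
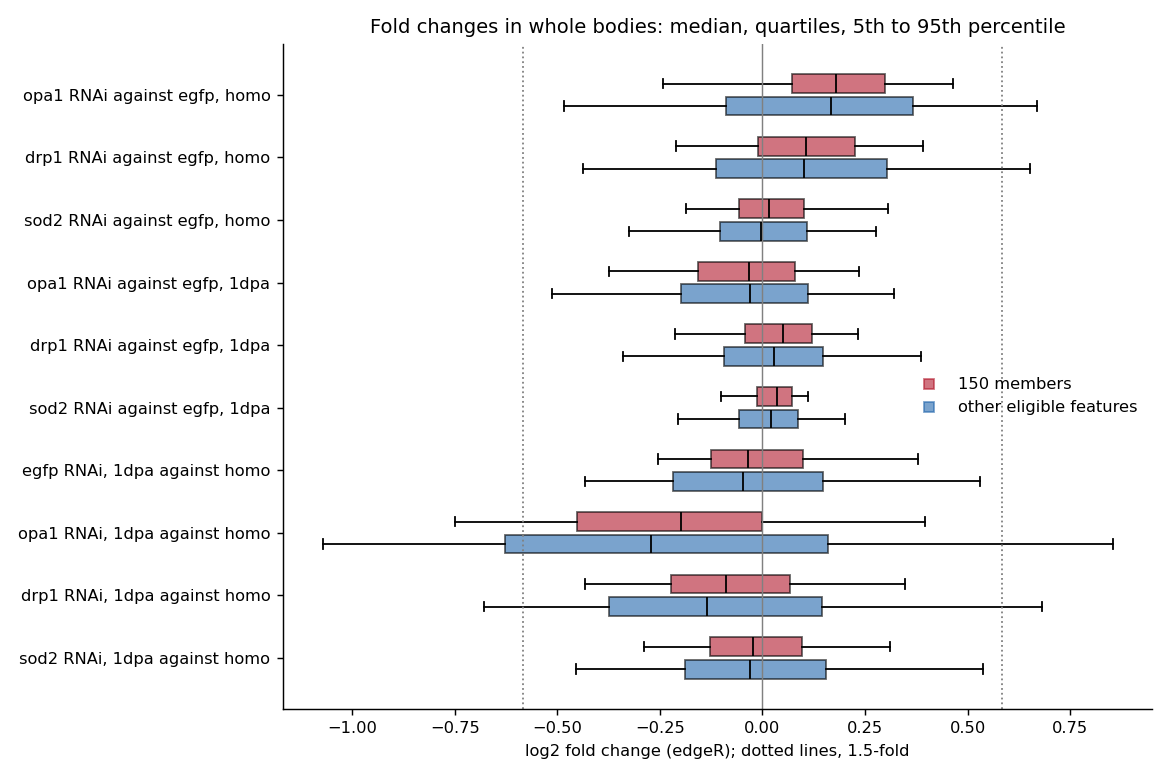
Log2 fold change from edgeR with TMM scaling (horizontal axis, dotted lines at 1.5-fold) in each of 10 whole-body comparisons (vertical axis), as median, quartiles and 5th to 95th percentile over the 150 members and over the other eligible features. Members' boxes are the narrower ones, and the members' median runs from -0.20 for opa1 RNAi at 1dpa against homo, where library totals alone give 0.16, to 0.18 for opa1 RNAi at homo, where they give -0.014.

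The change of an RNAi effect between both times was tested directly, as an interaction. For opa1 it passed in 72 members (48.0%), against 56.7% of the other eligible features and 28.5% of all features tested. The opa1 effect at 1dpa was above that at homo in 9 and below it in 63 with TMM, where 14.5% of the others were above and 42.2% below, but with library totals alone 61 passed, 43 above and 18 below. The members' median was -0.19 with TMM and 0.10 with totals, 0.24 below that of all features on either. The other eligible features had a median of -0.20 with TMM. For drp1 it passed in 8 members (5.33%), against 12.2% of the other eligible features and 3.92% of all features tested, with 2 above and 6 below, where 2.29% of the others were above and 9.93% below. With library totals alone 24 passed, 21 above and 3 below, and with RLE size factors in edgeR 8 passed, 3 above and 5 below. The count of 8 became 19 without egfp homo replicate 1, 3 without egfp homo replicate 3 or drp1 1dpa replicate 2, 4 without drp1 homo replicate 1, drp1 homo replicate 3 or egfp 1dpa replicate 3, and 5 without egfp 1dpa replicate 1. For sod2 it passed in 1 member, SMED30025732 (0.667%), against 0.451% of the other eligible features and 0.144% of all features tested, with the effect at 1dpa below that at homo. Of the others 0.258% were above and 0.193% below. No member passed for sod2 without any 1 of the sod2 libraries, without egfp homo replicate 1, egfp 1dpa replicate 1 or 3, or drp1 homo replicate 1 or 2, and 2 passed without egfp homo replicate 2. The count was 0 without the opa1 and drp1 RNAi homo libraries.

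Members differed in how often they were called. Of 10 RNAi and time comparisons the median member passed 3 and the median other feature 4. Among members 16 (10.7%) passed none, 65 passed 1 to 3, 66 passed 4 to 6 and 3 (2.0%) passed 7, against 137 others (4.42%) with none and 237 (7.64%) with 7 or more. The 3 members with 7 calls, named after their values were seen, were SMED30014390, SMED30012216 and SMED30001257. SMED30001257 ran from 79.3 to 179 CPM over the 24 libraries, with a median of 126.

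The 16 members with no call also had an interval inside 1.5-fold in all 10 comparisons. So did 135 of the 137 others with no call (4.35% of the 3102), so this was not particular to members. They are named here after their values were seen. Both measures are of whole bodies only: in tails these 16 stood anywhere from rank 17 to rank 150 of the members by SD. By the test across all 8 groups 3 of them did pass, SMED30035210 (edgeR adjusted p = 0.0222), SMED30030620 (0.0281) and SMED30029415 (0.0492). Lowest of the 16 in whole-body SD were SMED30032885, SMED30026133, SMED30001234, SMED30015506, SMED30032110, SMED30029415, SMED30030717 and SMED30021692, with SDs of 0.0581 to 0.0865. SMED30024560, SMED30033902, SMED30020336, SMED30016306, SMED30030620, SMED30016482, SMED30035210 and SMED30033014 followed, with SDs of 0.0888 to 0.123. SMED30026133 had 79.7 to 98.6 CPM over the 24 libraries with a median of 88.3, SMED30001234 had 70.9 to 85.7 with a median of 77.4, and SMED30032110 had 122 to 153 with a median of 143. Low and middling levels prevailed among the 16: SMED30032885 had a mean of 356 CPM, and the next highest, SMED30021692, had 154. Such levels were common among all 150 members, of which 85 had a tail mean of 500 to 1000 and 25 one above 2000. The 2 members with the highest tail means did have calls: SMED30035360 passed 6 of 10 comparisons and SMED30012219, with a tail mean of 7390, passed 3 within a 1.29-fold range. SMED30013177, with a tail mean of 5847, passed 1. At the low end of tail means, SMED30032717 passed 5 and SMED30035297 passed 2.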

How the data were processed

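RNA was measured by bulk sequencing in 36 tail and 24 whole-body libraries. The authors deposited estimated counts for whole bodies, whose table is named after kallisto; its version, index and genome build are not given in the sources used here. Tail values are a signal, which the authors deposited after scaling it between libraries: in the 6930 features checked, those above 50 in every tail library and above 0 in every TPM one, 97.2% of values are the deposited TPM times 1 factor of the feature and 1 of the library, within 0.001 on the log2 scale. The deposited TPM tables, scaled by the authors to transcript length and library, served for alternatives, and the tail one holds 27444 features. All columns of samples were used, so 0 were left out.

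Members were chosen by the rule on the tail values. Estimated counts were rounded and tested with edgeR 4.0.16 in R 4.3.3: TMM, filterByExpr (22889 features left), quasi-likelihood tests over 24 libraries and 8 group means, and Benjamini-Hochberg adjustment over all features tested, with a call at an adjusted p under 0.05. DESeq2 1.42.0 was an alternative. CPM are counts scaled by the TMM-adjusted library size. The SD in whole bodies used counts scaled to a common size and a pseudocount of 10.

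The features named are the 5 steadiest in tails, the 5 lowest and 5 highest by whole-body SD, up to 2 called members each way per comparison with groups that do not overlap, the 3 on each side of the limit, and the 2 highest and 2 lowest tail means. Gene and marker lists had been fixed too, but 0 IDs could be paired with names, so none was used. Members, lists and tests were chosen with earlier results of these data known.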

Additional observations from a re-analysis of the deposited data

Results flagged for a closer look

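Several named members had an RNAi effect that differed between 1dpa and homo by the direct test of that difference in edgeR (adjusted p under 0.05). Each value is the log2 fold change against egfp at 1dpa minus that at homo, with 3 libraries in each of 4 groups. With opa1 RNAi it was -1.47 for SMED30035360, -1.02 for SMED30012974 and -1.04 for SMED30023729, whose opa1 libraries were below egfp at 1dpa and above egfp at homo. It was 0.56 for SMED30029683 and 0.49 for SMED30019308, both lower than egfp at homo.

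With drp1 RNAi the difference was -0.68 for SMED30035360, -0.54 for SMED30012974 and -0.45 for SMED30028724. It was 0.35 for SMED30019308 and 0.38 for SMED30006819. With sod2 RNAi it was -0.55 for SMED30025732, which had more CPM than egfp at homo in every library. That call was lost without any 1 of the sod2 libraries. With 1 library left out, members passing ran from 3 to 19 for the drp1 interaction and from 0 to 2 for the sod2 one. The drp1, opa1 and sod2 values share the same egfp libraries. Members were named partly for the size of their effect at 1 of the times, so these differences are not independent of that choice.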

How the results depend on the processing

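Asking for a fold change over 1.5 as well moved most counts of called members: to 3, 1 and 0 for opa1, drp1 and sod2 RNAi at homo, to 1 and 0 for opa1 and drp1 at 1dpa, to 0, 22, 4 and 4 for time in egfp, opa1, drp1 and sod2 bodies, and to 16, 1 and 0 for the interactions of opa1, drp1 and sod2. Library totals alone gave 49 for opa1 at homo and 24 for the drp1 interaction. Fitting the compared libraries alone gave 49 for opa1 at homo, 4 for drp1 at 1dpa and 4 for the drp1 interaction. No low-count filter gave 8 for drp1 at 1dpa. DESeq2 gave 14 and 5 for the drp1 and sod2 interactions. Without the opa1 and drp1 RNAi homo libraries, chosen after seeing the data, there were 9 for drp1 at 1dpa, 0 for the sod2 interaction and a median SD of 0.121. The median SD was 0.173 on TPM, 0.129 at homo, 0.1002 at 1dpa, 0.103 with egfp and 0.0748 within groups. Members among the lowest whole-body SDs numbered 13 on TPM and 14 with egfp libraries. Of the 150 members, a level minimum of 200 kept 92, one of 1000 kept 65 (all of the 65 at that level), equal totals 42, TPM 1, no 6hpa libraries 66 and control tails 95. The cause was not tested. No direction reversed among the 36 named calls that were checked, those picked for the largest changes in each comparison. The calls of SMED30010650, SMED30013177 and SMED30005666 were not among them.

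Leaving out 1 library gave 122 to 130 members for any difference, 64 to 89, 33 to 61 and 8 to 14 for opa1, drp1 and sod2 at homo, and 16 to 36, 5 to 18 and 0 to 0 at 1dpa. It gave 31 to 48, 95 to 108, 62 to 88 and 29 to 42 for time in egfp, opa1, drp1 and sod2 bodies, and 55 to 76, 3 to 19 and 0 to 2 for the interactions.

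Whether replicate numbers pair the whole-body samples was not settled. Correlations of same-numbered deviations were weak, at -0.116 to 0.106 over 84 pairs. Their median was 0.00393, and that for other numbers was -0.00277. Yet 13 of 24 libraries correlated best with their own number, and whether this is more than chance would give was not tested. With the replicate block 126 members passed for any difference, 85, 57 and 15 for opa1, drp1 and sod2 at homo, 31, 16 and 0 at 1dpa, and 42, 105, 84 and 40 for time.

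With 3 libraries a group, single libraries decide the smaller counts, and stability in tails is relative to the authors' scaling.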

Other observations

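In whole bodies the members' extremes fell in opa1 RNAi groups more often than elsewhere. Opa1 RNAi bodies at homo were the group with the highest mean for 72 of 150 members (48.0%) and 38.0% of the other eligible features. Opa1 RNAi bodies at 1dpa were the group with the lowest mean for 53 members (35.3%) and 31.9% of the others. Drp1 RNAi bodies at homo were highest for 21 members (14.0%) and 16.9% of the others, and egfp bodies at 1dpa were lowest for 32 members (21.3%) and 14.3% of the others. These counts are on TMM-scaled values and were not computed with library totals alone. The members' share of the library's total is itself a scaling by totals. At 1dpa it was 2.44% ± 0.021 with opa1 RNAi and 2.39% ± 0.025 with egfp (SD, n = 3 each). With drp1 and sod2 RNAi at 1dpa it was 2.47% ± 0.030 and 2.42% ± 0.0006 (SD, n = 3 each). At homo it was 2.27% ± 0.013 with opa1 RNAi and 2.28% ± 0.020 with egfp (SD, n = 3 each). With drp1 and sod2 RNAi at homo it was 2.25% ± 0.032 and 2.34% ± 0.0063 (SD, n = 3 each). On this scale drp1 RNAi bodies, not opa1 ones, held the highest and the lowest mean share. No such share is given for the other eligible features.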
